A study of Homo sapiens with 18 samples.

Results

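Heat shock proteins and their DNAJ partners are the chaperones that fold, refold and hold other proteins. The genes described here were selected on their symbols and on their measured level. A gene was a member when its symbol belonged to the HSPA (HSP70, without HSPA8), HSPB (small heat shock proteins), DNAJA, DNAJB or DNAJC families, was HSPD1, HSPE1, HSPH1, HSP90B1, BAG1 to BAG6, CCT2 to CCT8 or TCP1, or was HSF1 or HSF2, and when its mean was at least 10 counts over the 18 libraries. Of 60642 genes in the count files, 86 matched by symbol and 65 of these were members. The lowest mean among the members was 61.4 counts (DNAJC22) and the highest mean below the minimum was 8.83 counts (HSPA6). The 65 members comprised 9 genes of the HSP70 and HSP110 families, HSP90B1, 3 small heat shock proteins, 35 DNAJ genes (2 DNAJA, 9 DNAJB and 24 DNAJC), 5 BAG genes, 8 subunits of the cytosolic chaperonin, the mitochondrial chaperonin pair HSPD1 and HSPE1, and both heat shock factors. The 21 matching genes under the minimum included the stress-inducible HSPA1A, listed at 0 in all libraries, and HSPA1B, with a mean of 0.167 counts, so neither was tested and no statement is made on them. HSPA1L and BAG6, which lie near them on chromosome 6, were also listed at 0 in all libraries. Whether the counting covered these genes was not checked, so these values are not read as a lack of expression.

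RNA was sequenced from MDA-MB-231 cells, a human triple-negative breast cancer line of mesenchymal character, in 6 groups of 3 replicates. Cells received a non-specific siRNA (siNS), an siRNA pool against HP1γ (siHP1γ; the gene is CBX3) or an siRNA pool against PRMT5 (siPRMT5), and were then given 100 nM of the synthetic glucocorticoid dexamethasone (Dex) or its vehicle ethanol (Eth) for 8 h. The groups are therefore siNS Eth, siNS Dex, siHP1γ Eth, siHP1γ Dex, siPRMT5 Eth and siPRMT5 Dex, all from this single line. The design asks how Dex, the loss of HP1γ or PRMT5, and their combination alter expression. The study calls the replicates biological, and neither it nor the labels say whether they were separate cultures, so the p-values measure the spread between these libraries.

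HSP70 proteins bind exposed hydrophobic stretches of unfolded proteins and release them in a cycle driven by ATP. J-domain proteins (DNAJ) bring clients to HSP70 and stimulate its ATPase, and BAG proteins and HSP110 proteins exchange its nucleotide. Heat shock and other damage activate HSF1, which drives the cytosolic chaperones, whereas unfolded proteins in the endoplasmic reticulum (ER) activate the unfolded protein response, which drives HSPA5 (BiP), HSP90B1 (GRP94) and their helpers.

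Promoter windows that hold elements of these responses are shown for 4 members. RefSeq (GRCh38.p14) gave a window of 300 bases, 250 before and 50 after the start, for 57 of the 65 members. All are printed 5′ to 3′ on the strand of the gene. In HSPA5 (chr9:125241294-125241593, minus strand) the capitals mark an ER stress response element, CCAAT and CCACG separated by 9 bases, that begins 66 bases before the start. In HSP90B1 (chr12:103930160-103930459, plus strand) they mark copies of it at 194 and 89 bases before the start, the latter read on the opposite strand. In DNAJB6 (chr7:157336754-157337053, plus strand) they mark 3 heat shock units, GAA, TTC and GAA, each separated by 2 bases, from 131 bases before the start. In DNAJA1 (chr9:33025023-33025322, plus strand) they mark a pair of units, GAA and TTC, 198 bases before the start and 3 units just after the start.
HSPA5: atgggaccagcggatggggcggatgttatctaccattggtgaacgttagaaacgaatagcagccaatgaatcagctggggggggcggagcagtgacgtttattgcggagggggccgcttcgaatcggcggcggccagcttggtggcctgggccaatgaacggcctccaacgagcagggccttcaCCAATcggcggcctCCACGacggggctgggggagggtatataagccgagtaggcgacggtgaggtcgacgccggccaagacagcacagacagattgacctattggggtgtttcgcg
HSP90B1: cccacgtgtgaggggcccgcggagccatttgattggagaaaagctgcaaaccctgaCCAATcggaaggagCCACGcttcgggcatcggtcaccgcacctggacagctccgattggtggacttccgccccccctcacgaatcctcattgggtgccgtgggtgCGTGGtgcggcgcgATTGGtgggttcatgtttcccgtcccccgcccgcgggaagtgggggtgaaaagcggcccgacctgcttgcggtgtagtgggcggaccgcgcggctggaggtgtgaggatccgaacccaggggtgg
DNAJB6: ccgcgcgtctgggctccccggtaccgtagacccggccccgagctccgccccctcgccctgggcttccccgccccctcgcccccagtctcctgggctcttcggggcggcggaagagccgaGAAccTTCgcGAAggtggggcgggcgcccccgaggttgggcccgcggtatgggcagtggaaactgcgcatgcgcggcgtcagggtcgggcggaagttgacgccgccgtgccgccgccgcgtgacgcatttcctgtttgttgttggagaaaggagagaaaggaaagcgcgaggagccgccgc
DNAJA1: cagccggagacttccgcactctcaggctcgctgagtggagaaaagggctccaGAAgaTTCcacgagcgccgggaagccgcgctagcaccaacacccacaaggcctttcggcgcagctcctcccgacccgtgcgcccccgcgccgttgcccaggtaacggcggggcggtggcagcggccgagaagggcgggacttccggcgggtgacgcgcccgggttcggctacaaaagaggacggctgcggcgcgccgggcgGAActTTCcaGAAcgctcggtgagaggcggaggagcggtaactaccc

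Both strands were searched. The ER stress response element was in 0.0769% of all 35116 RefSeq windows, and among the 57 members only HSPA5 and HSP90B1 held it. A pair of inverted heat shock units (GAA and TTC, or TTC and GAA, separated by any 2 bases) was in 13.5% of all windows and in 9 of the 57 members, and 3 units were in 0.49% of all windows and in 2 members, DNAJA1 and DNAJB6. Each run of 3 units also contains the pair. The window of DNAJB1 held none of these matches, nor did those of HSPH1, BAG3, HSPD1 and HSPE1. A match is a description of the letters and not of factor binding, and a window without a match says nothing of the factor.

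Library totals were 8682992 to 12472381 counts, of which the members took 1.25 to 1.45%. Marker levels are in CPM scaled by the library total alone, without TMM. Of the markers examined in this line, vimentin lay at 5610 to 9529 and ESR1, PGR and CDH1 at 0.211 or less. The epithelial marker EPCAM, also expected low, was at 8.42 to 14.5. Among the 6 markers of other cells, PTPRC, CD3E, ALB and INS stayed at 0.218 or less, and the endothelial CDH5 reached 0.70 and PECAM1 lay at 1.09 to 7.99. All levels from here on are in CPM, counts scaled to a common library size with TMM. CBX3 in siHP1γ cells was at 9.23 to 10.5 with Eth and 11.4 to 15.8 with Dex, against 234 to 274 and 220 to 241 in siNS cells. PRMT5 in siPRMT5 cells was at 6.10 to 8.37 and 9.39 to 11.5, against 226 to 262 and 226 to 247. In siHP1γ cells PRMT5 was also lower than in siNS cells, by a log2 fold change of -0.35 with Dex (edgeR adjusted p = 0.00123) and -0.25 with Eth (edgeR adjusted p = 0.0111). In bulk samples such as these, fewer cells of a type and less RNA per cell cannot be told apart.

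Each comparison was fitted over all 15298 genes that passed a filter on low counts, all 65 members included, with edgeR's quasi-likelihood test and Benjamini-Hochberg adjustment. A depletion, an interaction or a difference between depletions was called at an adjusted p under 0.05, and a Dex response at an adjusted p under 0.01 with a fold change of at least 1.5. Far more members were called for the depletions than for Dex, the thresholds differing. PRMT5 depletion moved 35 members with Eth (53.8%, against 42.1% of all genes tested) and 31 with Dex (47.7%, against 42.4%). HP1γ depletion moved 25 with Eth (38.5%, against 31.8% of all genes) and 16 with Dex (24.6%, against 24%). Most shifts were small: only 6 and 4 members changed by at least 1.5-fold with PRMT5 depletion (Eth and Dex) and 5 and 2 did so with HP1γ depletion. The share of all genes past 1.5-fold is not given here, so small shifts are not shown to be particular to the members. No member passed the Dex threshold in siNS cells, where 2.71% of all genes did. The map of all members gives these fold changes by family.

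**Figure D1:**
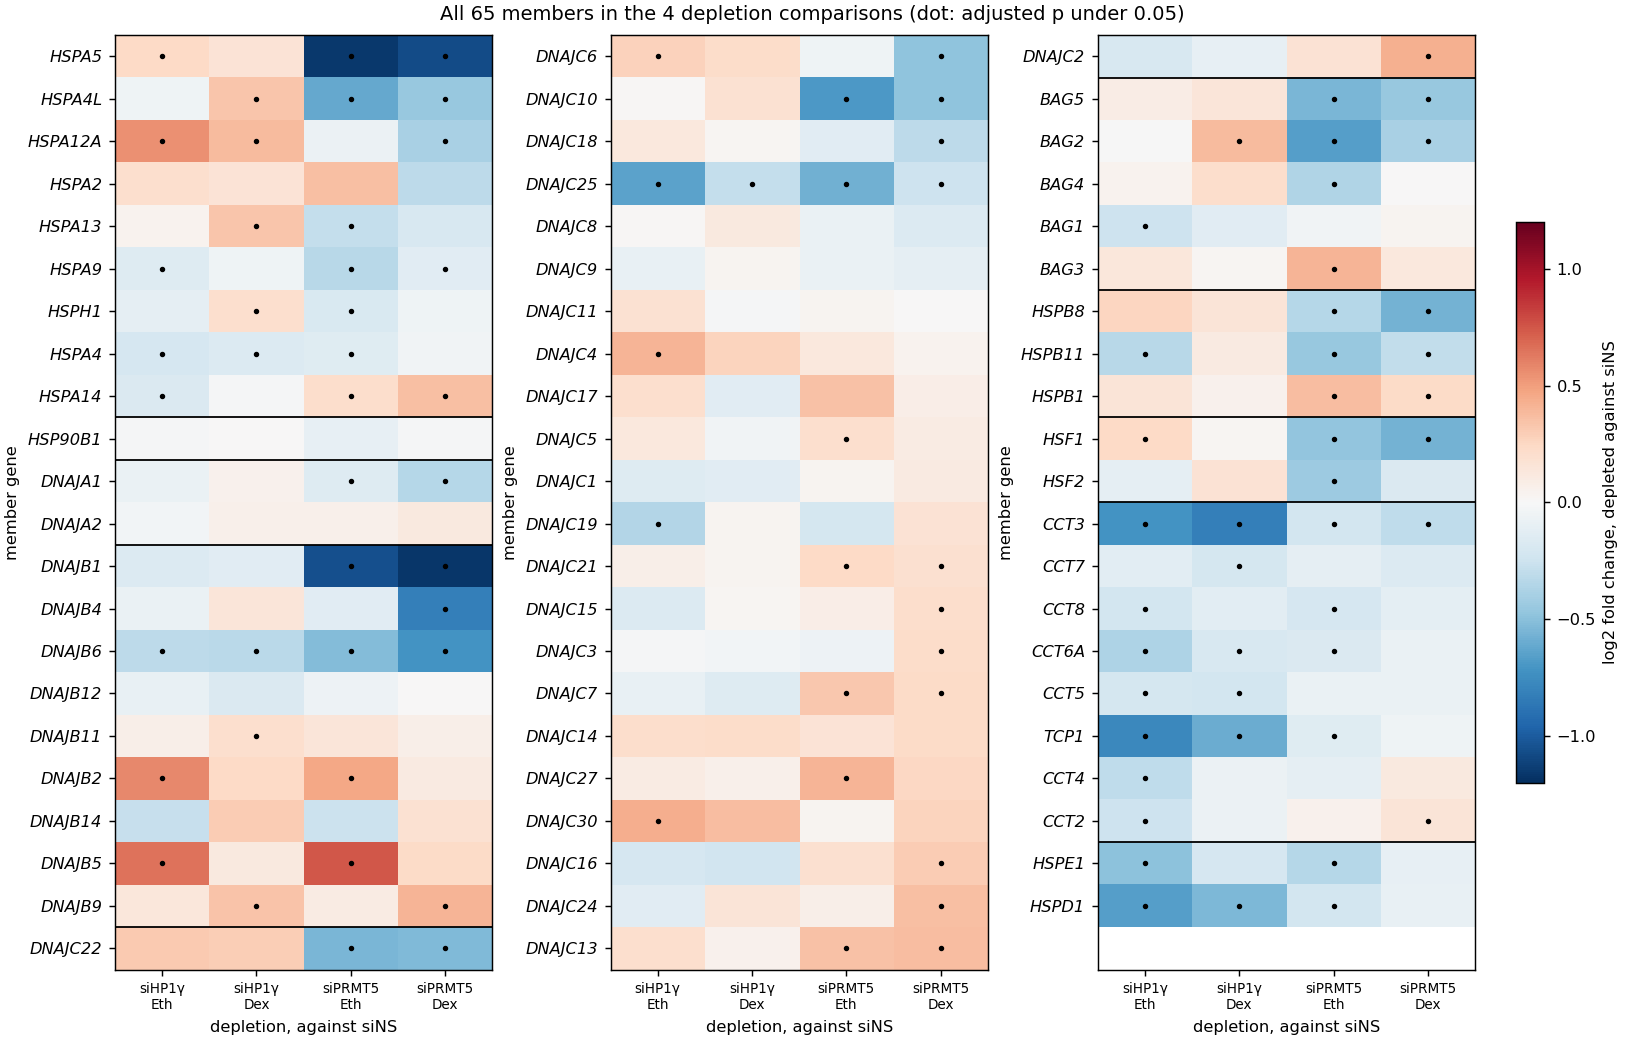
Log2 fold change (colour, blue lower and red higher) of each of the 65 members (rows, families parted by lines) in siHP1γ and siPRMT5 cells against siNS cells with Eth or Dex (columns), a dot marking an edgeR adjusted p under 0.05. HSPA5 and DNAJB1 are darkest blue in the siPRMT5 columns, and TCP1, CCT3 and HSPD1 are blue in both siHP1γ columns.

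PRMT5 depletion lowered the main ER HSP70 and the main stress-inducible J-protein to 44.5 to 48.2% of their siNS level, with Eth and with Dex. HSPA5 encodes BiP, the HSP70 of the ER lumen, which also holds the sensors of the unfolded protein response inactive (hg38 chr9:125234853-125241382, minus strand). Its level in siNS Eth was 870, 930 and 987 CPM, and in siPRMT5 Eth 428, 429 and 391. With Dex it was 834, 887 and 894 in siNS and 408, 399 and 433 in siPRMT5. Every siPRMT5 library thus lay under every siNS library with a wide gap. The log2 fold change was -1.16 ± 0.07 (SE) with Eth (edgeR adjusted p = 3.931e-13) and -1.08 ± 0.07 with Dex (edgeR adjusted p = 1.398e-12). The siHP1γ libraries were on the other side, at 1099, 1080 and 1100 with Eth and 914, 971 and 1052 with Dex, a log2 fold change of 0.23 with Eth (edgeR adjusted p = 0.007213) and 0.17 with Dex, which did not pass (edgeR adjusted p = 0.0636).

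DNAJB1 encodes HSP40, the inducible J-protein that recruits HSP70 and is a classical HSF1 target (chr19:14514769-14560391, minus strand, overlapping TECR and MIR639). It read 288, 340 and 332 CPM in siNS Eth, and 151, 165 and 147 in siPRMT5 Eth. With Dex it read 278, 300 and 290 in siNS and 127, 133 and 126 in siPRMT5. The groups did not overlap in either condition. Its log2 fold change was -1.05 ± 0.07 with Eth (edgeR adjusted p = 1.409e-11) and -1.17 ± 0.07 with Dex (edgeR adjusted p = 1.919e-12). DNAJB6, a J-protein that holds back aggregation, fell less, from 166, 164 and 164 in siNS Eth to 118, 114 and 113 in siPRMT5 Eth. With Dex it went from 152, 149 and 153 to 96.5, 90.3 and 89.7. The DNAJB6 groups were also fully apart, with log2 fold changes of -0.52 ± 0.06 (Eth, edgeR adjusted p = 1.373e-07) and -0.71 ± 0.06 (Dex, edgeR adjusted p = 6.689e-10), and DNAJA1, the other member with 3 heat shock units in its window, changed by -0.16 with Eth and -0.34 with Dex.

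**Figure D2:**
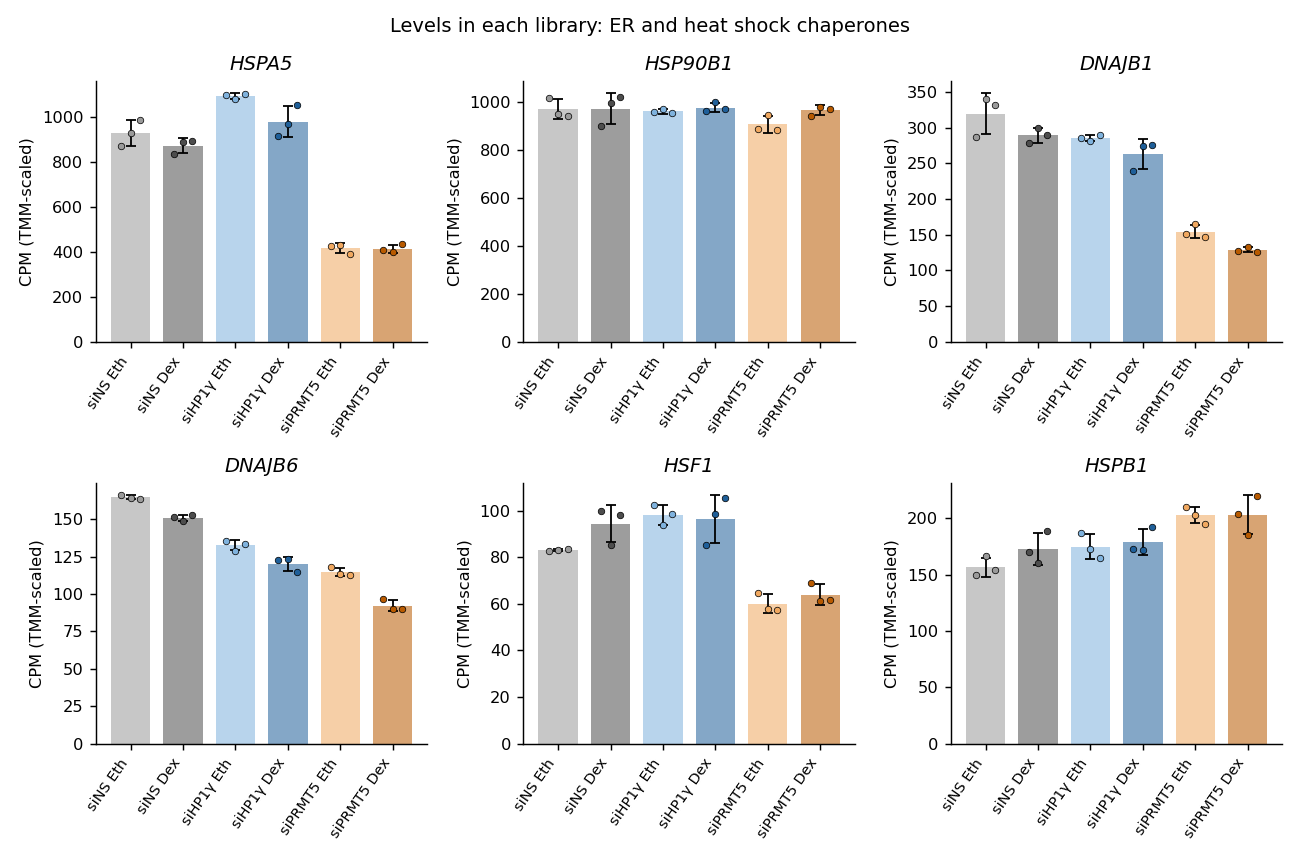
TMM-scaled CPM of 6 members in each library, by group (points), with the group mean (bar) and SD (error bar, n = 3). HSPA5 and DNAJB1 are lower in siPRMT5 than in siNS and siHP1γ with Eth and with Dex, HSF1 is lower and HSPB1 higher in siPRMT5, and the HSP90B1 libraries overlap between siNS and siPRMT5.

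The RNA of the heat shock factor HSF1 was lower too. HSF1 protein and activity were not measured, and a link to the levels of the other members was not tested. HSF1 stood at 82.6, 83.3 and 83.5 CPM in siNS Eth and 64.7, 58.0 and 57.4 in siPRMT5 Eth. With Dex it stood at 99.9, 85.3 and 98.4 against 69.1, 61.2 and 61.7, again without overlap. The log2 fold changes were -0.47 ± 0.09 with Eth (edgeR adjusted p = 7.802e-05) and -0.56 ± 0.08 with Dex (edgeR adjusted p = 5.411e-06). HSF2, which can form mixed trimers with HSF1, fell by 0.43 on the log2 scale with Eth and had a value of -0.18 with Dex that did not pass (edgeR adjusted p = 0.05701). Of the 14 heat-inducible genes listed, 10 were members. With Eth, 2 of these 10 were higher and 7 lower in siPRMT5 cells, and with Dex 1 was higher and 4 were lower, against 20.6% higher and 21.6% lower of all genes with Eth and 20.6% and 21.9% with Dex.

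The heat-inducible members did not all go one way. HSPB1 (HSP27), a small heat shock protein that binds unfolding clients, was at 150, 166 and 154 CPM in siNS Eth and 210, 203 and 195 in siPRMT5 Eth. With Dex the libraries lay at 170, 161 and 188 in siNS and at 204, 186 and 220 in siPRMT5, so they overlapped, and the log2 fold changes were 0.37 (Eth, edgeR adjusted p = 0.0003344) and 0.23 (Dex, edgeR adjusted p = 0.01675). BAG3, which links HSP70 to HSPB8 and to autophagy, rose with Eth from 295, 322 and 298 to 410, 401 and 400, a log2 fold change of 0.41 (edgeR adjusted p = 5.482e-06). With Dex its value was 0.12 and did not pass (edgeR adjusted p = 0.0997). HSPB8 itself was lower, by -0.35 with Eth and -0.57 with Dex, and HSPH1, an HSP110 nucleotide exchange factor, was lower by -0.19 with Eth only, its value with Dex being -0.05 (edgeR adjusted p = 0.5736).

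Among the 9 HSP70 and HSP110 members, 1 was higher and 6 lower in siPRMT5 cells with Eth, and 1 was higher and 4 lower with Dex (66.7% and 44.4% lower, against 21.6% and 21.9% of all genes). HSPA4L, an HSP110 protein, had log2 fold changes of -0.62 with Eth and -0.45 with Dex, and the mitochondrial HSP70 HSPA9 had -0.33 and -0.13. Of the 5 BAG genes, 1 was higher and 3 lower with Eth, and 2 were lower with Dex, at a median log2 fold change of 0 over the 5. BAG2, which inhibits the chaperone-linked ubiquitin ligase CHIP, went from 236, 200 and 222 CPM to 146, 128 and 140 with Eth and from 186, 199 and 183 to 143, 158 and 133 with Dex. Those ranges were separate in both conditions, at log2 fold changes of -0.67 (edgeR adjusted p = 2.542e-07) and -0.39 (edgeR adjusted p = 0.0003494). BAG5 had values of -0.55 and -0.46.

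The DNAJC genes, the most diverse J-proteins, moved in both directions. Of the 24, 5 were higher with Eth (20.8%, against 20.6% of all genes) and 8 with Dex (33.3%, against 20.6%). Lower were 3 with Eth, where 21.6% of all genes were, and 5 with Dex (20.8%, against 21.9%). The lower shares were thus not above those of all genes. DNAJC13, an endosomal J-protein, had log2 fold changes of 0.35 with Eth and 0.37 with Dex, and DNAJC7, which passes clients between HSP70 and HSP90, had 0.32 and 0.23. HSPA14 and DNAJC2, partners at the ribosome, were both higher with Dex, HSPA14 by 0.36 (edgeR adjusted p = 3.642e-05) and DNAJC2 by 0.42 (edgeR adjusted p = 0.001256). HSPA14 was also higher with Eth, by 0.21, whereas DNAJC2 then had 0.18 and did not pass (edgeR adjusted p = 0.1726). DNAJC24, a factor of diphthamide synthesis, and DNAJC16 were higher with Dex, by 0.36 and 0.31, and DNAJC21, a ribosome assembly factor, DNAJC27, DNAJB2 and DNAJB5 were higher with Eth, by 0.24, 0.41, 0.46 and 0.75. DNAJC21 was also higher with Dex, by 0.19. Lower DNAJC genes were DNAJC10, an ER reductase that works with BiP, at -0.69 and -0.48, DNAJC25 at -0.57 and -0.25, and DNAJC22 at -0.55 and -0.53. With Dex the clathrin uncoating factor DNAJC6, at -0.48, and DNAJC18, at -0.32, were also lower.

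In all, 15 members were lower in siPRMT5 cells both with Eth and with Dex (BAG2, BAG5, CCT3, DNAJA1, DNAJB1, DNAJB6, DNAJC10, DNAJC22, DNAJC25, HSF1, HSPA4L, HSPA5, HSPA9, HSPB8 and HSPB11), where 15.2% of all genes were, and 5 were higher in both (DNAJC7, DNAJC13, DNAJC21, HSPA14 and HSPB1), where 12.9% of all genes were. Among the 12 of the 15 with a promoter window, 5 held the pair of heat shock units (BAG2, DNAJA1, DNAJB6, HSPA9 and HSPB8), as did 4 of the other 45 members with a window (CCT4, DNAJC15, HSPB1 and TCP1). No test was made of this split. With Dex, 20 of the 31 calls of PRMT5 depletion held under every alternative run, and with Eth 21 of 35. Of the 15 lower members, 8 held so in both conditions, namely HSPA5, DNAJB1, DNAJB6, HSF1, BAG2, BAG5, DNAJC10 and HSPA4L, and of the 5 higher members DNAJC7 and HSPA14 did. With Dex the call of HSPA9 (-0.13, edgeR adjusted p = 0.04821) was lost in 23 alternatives, among them the removal of any library, and those of HSPB11 and DNAJC25 in 9 and 7. The call of HSPB1 with Dex was lost without siNS Dex replicate 1 or 2 or siPRMT5 Dex replicate 3.

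Members of the ER differed among themselves. HSP90B1, the ER HSP90, holds the same element as HSPA5 and lay at 1018, 950 and 941 CPM in siNS Eth and 889, 946 and 885 in siPRMT5 Eth, ranges that overlapped. With Dex it lay at 901, 994 and 1022 against 943, 981 and 973. Its log2 fold changes were -0.10 (edgeR adjusted p = 0.1987) and -0.01 (edgeR adjusted p = 0.9121), and it passed in none of the 11 comparisons. Of 13 ER members, 3 were lower with Eth (HSPA5, DNAJC10 and HSPA13; 23.1%, against 21.6% of all genes) and none higher (against 20.6%). With Dex 3 were lower (23.1%, against 21.9% of all genes) and 3 higher (23.1%, against 20.6%), so the lower shares were near those of all genes. DNAJB9 (ERdj4), a J-protein of ER degradation, was higher with Dex, by 0.41 (edgeR adjusted p = 0.003067), as was DNAJC3 (p58IPK), by 0.22, and DNAJB11 (ERdj3) had 0.07 and 0.14 and passed in neither.

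The other genes of the unfolded protein response were examined as a list of 23, all tested and none of them a member. Of the 21 with a promoter window, 4 held the ER stress response element (CALR, CANX, CRELD2 and XBP1). A relation of the element to the fold changes was not tested. In siPRMT5 cells 13 of the 23 were lower and none higher, with Eth and with Dex alike (56.5% lower, against 21.6% and 21.9% of all genes), at a median log2 fold change of -0.24 and -0.30 against medians of 0.0005 and 0.0021 over all genes. CALR, a lectin chaperone of the ER, went from 415, 482 and 487 CPM in siNS Eth to 304, 292 and 281 in siPRMT5 Eth, and from 499, 503 and 506 to 284, 276 and 290 with Dex. All siPRMT5 libraries were lower than all siNS libraries, and the log2 fold changes were -0.66 and -0.83. EDEM1, which directs misfolded glycoproteins to degradation, had -0.68 and -0.77, the stress-sensing kinase EIF2AK3 (PERK) had -0.52 and -0.70, ATF4, the transcription factor downstream of it, had -0.67 and -0.66, and SEL1L of the degradation complex had -0.61 and -0.45. In siHP1γ cells 5 were higher and 2 lower with Eth, and 4 were higher and none lower with Dex (30.4% and 17.4% called, against 31.8% and 24% of all genes). Higher were 21.7% and 17.4%, against 16.5% and 11.7% of all genes. Lower were 8.7% with Eth, against 15.2%, and none with Dex, against 12.3%. ERN1 (IRE1) had log2 fold changes of 0.35 and 0.63 there, EIF2AK3 0.49 and 0.34, and PDIA4 0.39 and 0.28. With scaling by library size alone, 8 of the list were called for HP1γ depletion with Dex, and 4 in place of 7 with Eth when siNS Eth replicate 1 or 3 or siHP1γ Eth replicate 1 or 2 was left out.

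**Figure D3:**
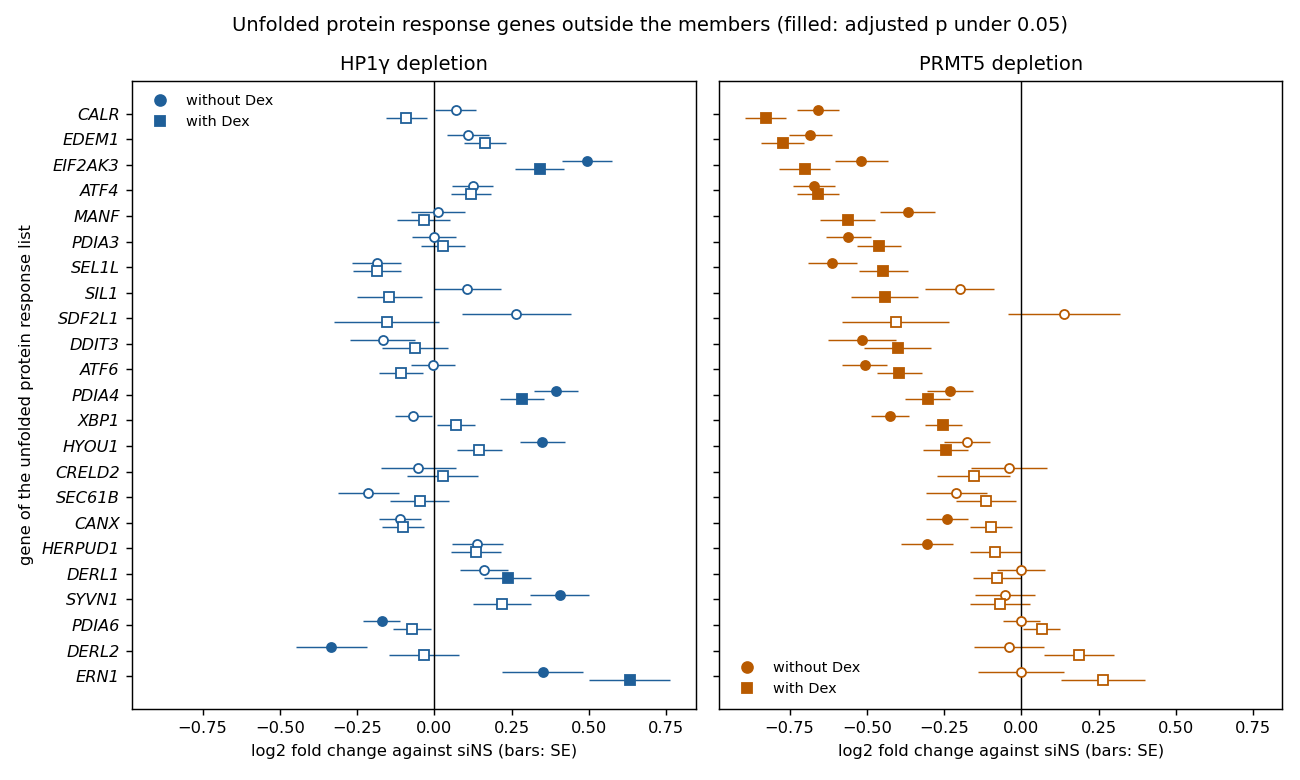
Log2 fold change (point) with its SE (bar) of the 23 genes of the unfolded protein response list for PRMT5 and HP1γ depletion, with Eth and with Dex, filled points having an edgeR adjusted p under 0.05. The 13 filled points of PRMT5 depletion lie left of 0 in both conditions.

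HP1γ depletion lowered the chaperonins, the double-ring machines that enclose a folding protein. In siHP1γ Eth cells 7 of the 8 subunits of the cytosolic chaperonin (CCT or TRiC, which folds actin and tubulin) were lower, and in siHP1γ Dex cells 5 of 8, against 15.2% and 12.3% of all genes lower. The subunits summed to 5267 to 5579 CPM in siNS Eth and 4325 to 4506 in siHP1γ Eth, and to 5162 to 5493 in siNS Dex and 4171 to 4577 in siHP1γ Dex, while the siPRMT5 libraries lay between, at 4929 to 5148 and 4950 to 5124. The siHP1γ and siNS sums did not overlap in either condition.

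The fall was uneven over the ring. TCP1, the first subunit (chr6:159778498-159789703, minus strand, overlapping ACAT2, SNORA20 and SNORA29), went from 472, 450 and 474 CPM in siNS Eth to 262, 280 and 277 in siHP1γ Eth. With Dex it went from 432, 443 and 428 to 298, 286 and 277. These groups were well apart, with log2 fold changes of -0.77 ± 0.06 (Eth, edgeR adjusted p = 2.514e-10) and -0.60 ± 0.06 (Dex, edgeR adjusted p = 2.371e-08). CCT3 (chr1:156308968-156367873, minus strand, overlapping TSACC) went from 500, 585 and 570 to 349, 338 and 316 with Eth, and from 559, 619 and 555 to 296, 353 and 332 with Dex. It too was separate in both conditions, with log2 fold changes of -0.72 ± 0.07 (Eth, edgeR adjusted p = 5.52e-08) and -0.82 ± 0.07 (Dex, edgeR adjusted p = 7.602e-09).

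The remaining subunits had smaller values. With Eth, CCT2, CCT4, CCT5, CCT6A and CCT8 were lower by log2 fold changes of -0.25, -0.31, -0.21, -0.37 and -0.22, and CCT7 had -0.12 and did not pass (edgeR adjusted p = 0.2008). With Dex, CCT5, CCT6A and CCT7 were lower by -0.22, -0.20 and -0.21, while CCT2, CCT4 and CCT8 had -0.07, -0.07 and -0.13 and did not pass. These small calls with Dex depend on the scaling and on single libraries. With library size alone 2 of the 8 were called with Dex and 6 in place of 8 log2 fold changes were negative, and leaving out siNS Dex replicate 2 also left 2, while leaving out siNS Dex replicate 3 or siHP1γ Dex replicate 1 or 2 left 3. The calls of TCP1 and CCT3 for HP1γ depletion held under every alternative run, in both conditions. In siPRMT5 cells 4 subunits were lower with Eth (TCP1 -0.15, CCT3 -0.22, CCT6A -0.18 and CCT8 -0.21). This was 50% of the 8, against 21.6% of all genes. Without siNS Eth replicate 3 or siPRMT5 Eth replicate 2 or 3, only 1 or 2 were called. With Dex CCT3 was lower (-0.31) and CCT2 higher (0.16), where 21.9% of all genes were lower and 20.6% higher. Neither share of the 8 with Dex was above that of all genes.

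The mitochondrial chaperonin followed a similar course. HSPD1 (HSP60) and its lid HSPE1 (HSP10) overlap on opposite strands (chr2:197486584-197516737, minus, and chr2:197500140-197503449, plus), and their promoter windows share 204 bases. HSPE1 also overlaps HSPE1-MOB4 on the same strand. HSPD1 went from 609, 601 and 606 CPM in siNS Eth to 379, 391 and 378 in siHP1γ Eth, and from 549, 585 and 555 to 375, 403 and 387 with Dex. No library of one group reached the other, and the log2 fold changes were -0.66 ± 0.06 (Eth, edgeR adjusted p = 3.477e-09) and -0.54 ± 0.06 (Dex, edgeR adjusted p = 1.346e-07). HSPE1 went from 105, 78.7 and 82.0 to 66.3, 60.4 and 62.1 with Eth, a log2 fold change of -0.49 (edgeR adjusted p = 0.0003956). With Dex, 80.1, 84.0 and 75.2 stood against 67.4, 67.5 and 73.5, a value of -0.20 that did not pass (edgeR adjusted p = 0.1446) although the libraries did not overlap. In siPRMT5 Eth cells HSPD1 and HSPE1 were also lower, by -0.22 and -0.34. Reads of such genes can be shared with pseudogene copies, whose counts were 15.7 to 19.9% of those of HSPD1 and 15.9 to 18.3% of those of TCP1 over all libraries. For HSPD1 this share was 17.1 to 17.3% in siNS Eth and 17.7 to 17.9% in siHP1γ Eth. For HSPE1, HSPA9 and CCT8 the copies held more, 28.8 to 41.7%, 30.7 to 36.3% and 68.7 to 77% of the parent's counts, and values of these genes are less certain.

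**Figure D4:**
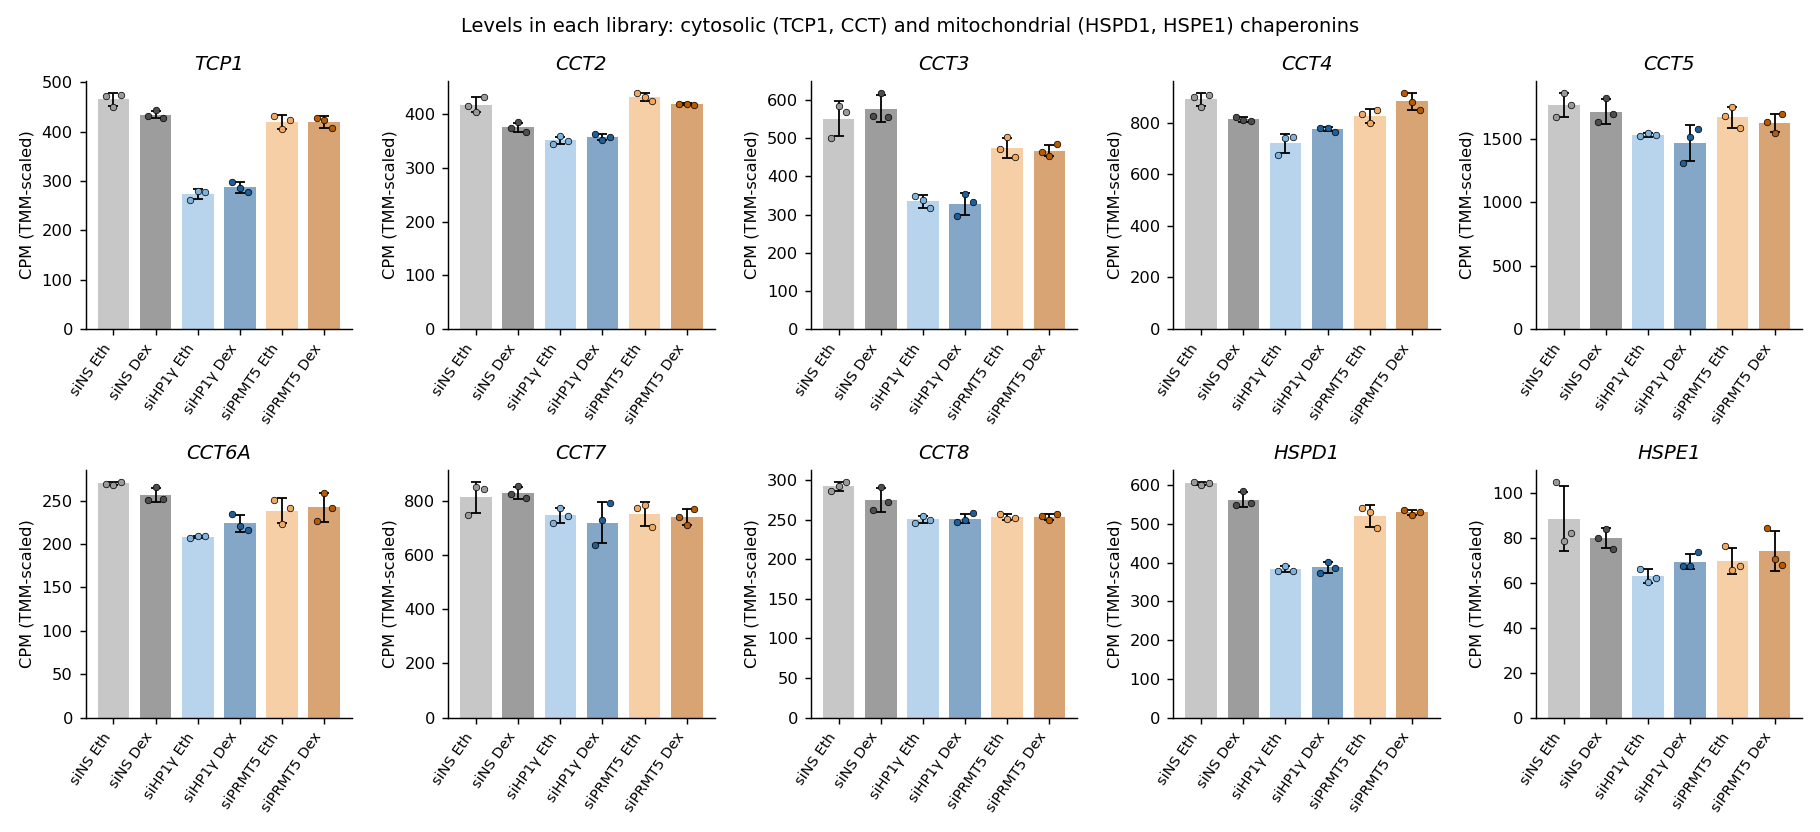
TMM-scaled CPM of the 8 cytosolic chaperonin subunits (TCP1, CCT2 to CCT8) and of HSPD1 and HSPE1 in each library, by group (points), with the group mean (bar) and SD (error bar, n = 3). The siHP1γ libraries of TCP1, CCT3 and HSPD1 lie under all siNS and siPRMT5 libraries.

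Over all members, the chaperonins included, HP1γ depletion moved genes in both directions. With Eth, 8 members were higher and 17 lower, against 16.5% and 15.2% of all genes, and with Dex 7 were higher and 9 lower, against 11.7% and 12.3%. This split depended on the scaling: with library size alone it was 12 and 12 with Eth and 15 and 4 with Dex. Higher with Eth were the J-proteins DNAJB5 (0.65, edgeR adjusted p = 1.952e-05), DNAJB2 (0.58), DNAJC30 of the mitochondria (0.43), DNAJC4 (0.40) and DNAJC6 (0.28), the divergent HSP70 HSPA12A (0.54), HSF1 (0.24) and HSPA5. Higher with Dex were BAG2 (0.38), HSPA12A (0.38), DNAJB9 (0.34), HSPA4L (0.34), HSPA13 (0.33), HSPH1 (0.20) and DNAJB11 (0.20).

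HSPA12A was the only member higher in both conditions, where 7.05% of all genes were. It lay at 38.4, 38.0 and 40.5 CPM in siNS Eth and 57.4, 57.0 and 56.2 in siHP1γ Eth, and at 40.5, 39.3 and 42.4 against 52.9, 56.0 and 50.3 with Dex, with no overlap. Lower in both were 8 members (TCP1, CCT3, CCT5, CCT6A, HSPD1, HSPA4, DNAJB6 and DNAJC25), where 7.97% of all genes were. DNAJB6 had log2 fold changes of -0.31 with Eth and -0.33 with Dex, and DNAJC25 had -0.64 and -0.29. Lower with Eth, next to the chaperonins, were also DNAJC19 of the mitochondrial import motor (-0.35), whose pseudogene copies hold 73.5 to 126% of its own counts, and HSPB11, a subunit of intraflagellar transport (-0.34). Of the calls of HP1γ depletion, 14 of 25 with Eth and 6 of 16 with Dex (BAG2, CCT3, DNAJB6, HSPA12A, HSPD1 and TCP1) held under every alternative run, and 8 to 16 members were called with Dex when 1 library was left out, 8 without siNS Dex replicate 2 and 10 without siNS Dex replicate 3.

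CCT3, DNAJB6 and DNAJC25 were lower in all 4 comparisons with siNS, where 2.16% of all genes were, although the DNAJC25 calls with Dex were lost in 7 alternatives for PRMT5 and 5 for HP1γ depletion and the CCT3 call for PRMT5 depletion with Eth in 4. DNAJC25 overlaps DNAJC25-GNG10 on the same strand, and reads shared by the 2 cannot be told apart. In none of the 4 did 11 members pass, where 30.7% of all genes did not (DNAJA2, DNAJB12, DNAJB14, DNAJC1, DNAJC8, DNAJC9, DNAJC11, DNAJC14, DNAJC17, HSP90B1 and HSPA2). Comparisons under the same treatment share the same 3 siNS libraries, so siPRMT5 and siHP1γ cells were also compared directly. With Eth, 16 members were higher and 19 lower in siPRMT5 than in siHP1γ cells, 53.8% of the members against 48.4% of all genes (23.4% higher, 25% lower). With Dex, 15 were higher and 21 lower, 55.4% against 49.9% (24.4% higher, 25.5% lower), and with library size alone 9 were higher and 26 lower.

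The largest direct differences were again in HSPA5 and DNAJB1. HSPA5 was lower in siPRMT5 than in siHP1γ cells by a log2 fold change of -1.39 with Eth and -1.24 with Dex, and DNAJB1 by -0.89 and -1.03. The others among the 6 largest with Eth were DNAJC22 (-0.86), HSF1 (-0.71), DNAJC10 (-0.71) and BAG2 (-0.66), and with Dex DNAJB4 (-0.97), DNAJC22 (-0.83), HSPA4L (-0.79) and BAG2 (-0.77). In the opposite direction, TCP1 was higher in siPRMT5 than in siHP1γ cells by 0.62 with Eth and 0.55 with Dex, CCT3 by 0.50 and 0.52, and HSPD1 by 0.44 and 0.45. These named differences all passed the test.

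Dex itself moved few members. In siNS cells none was called, 14 of the 65 had an unadjusted p under 0.05, where 22.4% of all genes did, and DESeq2 called none. Without the fold limit and at an adjusted p under 0.05, 3 passed: DNAJB5, HSPA4L and HSPH1. The share of all genes passing this looser threshold is not given here, so these 3 are described as single genes only. HSPA4L lay at 65.6, 58.0 and 54.997 CPM in siNS Eth and 37.5, 40.6 and 41.7 in siNS Dex, a log2 fold change of -0.57 (edgeR adjusted p = 0.0001004). HSPH1 lay at 472, 429 and 450 against 345, 356 and 339, a value of -0.38 (edgeR adjusted p = 0.0004076). HSPA4L and HSPH1 were thus separate between siNS Eth and siNS Dex, but each change fell short of 1.5-fold. HSPA4, also of the HSP70 and HSP110 families, was not among the 3. In siHP1γ cells no member was called, where 1.67% of all genes were, 10 of the 65 had an unadjusted p under 0.05, where 18% of all genes did, and DESeq2 called none. In siPRMT5 cells DNAJB4 was called alone (1.54% of members, against 5.44% of all genes).

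DNAJB4, a cytosolic J-protein (chr1:77979175-78017964, plus strand, overlapping GIPC2), lay at 52.1, 46.0 and 49.0 CPM in siNS Eth and 49.1, 55.6 and 46.0 in siNS Dex, and at 41.5, 42.4 and 49.3 in siPRMT5 Eth and 27.3, 31.5 and 26.0 in siPRMT5 Dex. Only the siPRMT5 Dex libraries stood apart, under all the others, while siHP1γ cells gave 41.1, 50.03 and 47.4 with Eth and 67.1, 51.2 and 47.5 with Dex. The Dex response in siPRMT5 cells was -0.65 ± 0.12 (edgeR adjusted p = 0.000255) and differed from that in siNS cells by -0.68 ± 0.17 (interaction, edgeR adjusted p = 0.01797). The interaction was lost without siNS Dex replicate 2, siPRMT5 Eth replicate 3 or siPRMT5 Dex replicate 1, with an adjusted p of up to 0.0583, and the Dex call was lost without siPRMT5 Eth replicate 3.

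DNAJB5, another cytosolic J-protein (chr9:34989641-34998900, plus strand), lay at 29.1, 36.1 and 31.1 CPM in siNS Eth and 39.4, 39.4 and 44.3 in siNS Dex. In siPRMT5 cells it lay at 51.4, 59.1 and 51.7 with Eth and 48.8, 44.8 and 51.3 with Dex, and in siHP1γ cells at 53.1, 48.5 and 49.6 with Eth and 38.3, 48.4 and 47.5 with Dex. The siNS Eth libraries were the lowest of all. The interaction with PRMT5 depletion was -0.52 ± 0.14 (edgeR adjusted p = 0.0355), and it was lost in 8 alternatives, with an adjusted p of up to 0.1319. The interaction with HP1γ depletion was -0.53 and did not pass (edgeR adjusted p = 0.0864). DNAJB4 and DNAJB5 were the 2 members called for the interaction with PRMT5 (3.08%, against 3.8% of all genes), and the others of its 6 largest did not pass, HSPA2 (-0.67), DNAJB14 (0.45), DNAJC6 (-0.43) and DNAJC19 (0.39) having edgeR adjusted p-values of 0.1661, 0.3171, 0.05432 and 0.1719. No member was called for the interaction with HP1γ by edgeR, where 0.399% of all genes were, while 14 of the 65 had an unadjusted p under 0.05, where 17.2% of all genes did, and DESeq2 called 4. Its 6 largest values were in DNAJB14 (0.58), DNAJB5, HSPB11 (0.44), HSPA4L (0.39), BAG2 (0.38) and DNAJC19 (0.38), with edgeR adjusted p-values from 0.08638 to 0.2126.

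**Figure D5:**
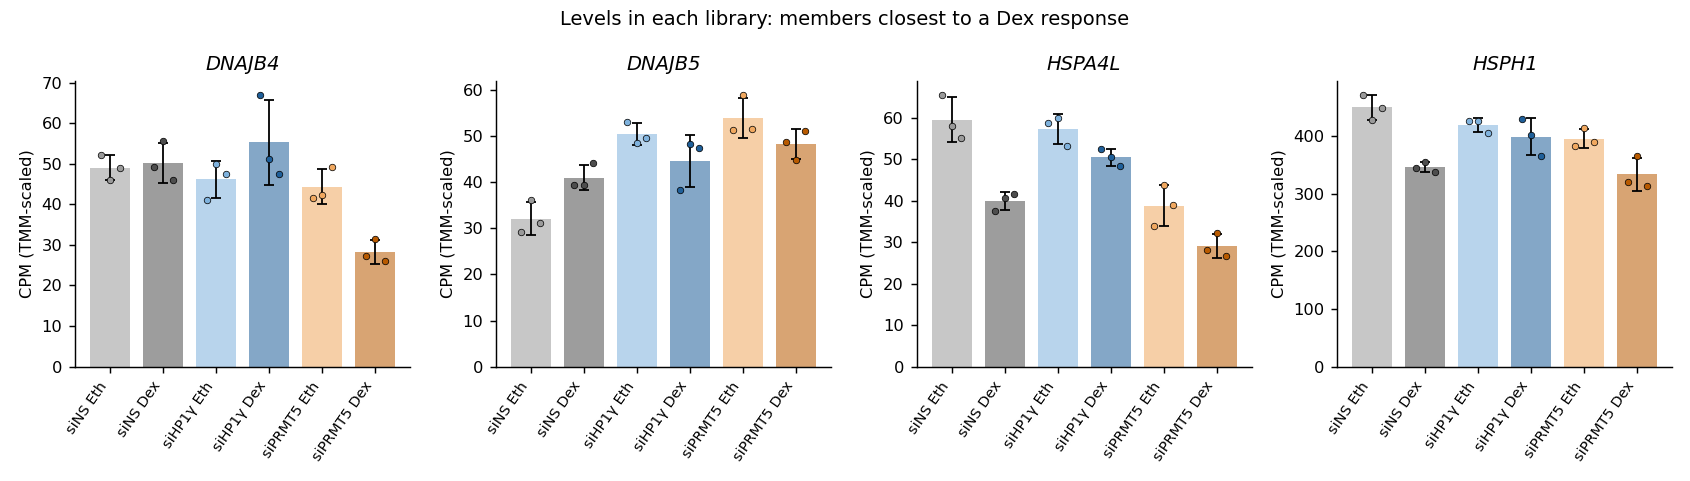
TMM-scaled CPM of DNAJB4, DNAJB5, HSPA4L and HSPH1 in each library, by group (points), with the group mean (bar) and SD (error bar, n = 3). DNAJB4 is lowest in siPRMT5 Dex, DNAJB5 is lowest in siNS Eth, and HSPA4L and HSPH1 are lower in siNS Dex than in siNS Eth.

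The cytosolic partners of these chaperones were read from a list of 18 HSF1 targets and co-chaperones, 17 of them tested. In siHP1γ cells 5 were lower and none higher with Eth, and 3 were lower and 2 higher with Dex. In each condition 29.4% were called, against 31.8% and 24% of all genes. Lower were 29.4% with Eth and 17.6% with Dex, against 15.2% and 12.3% of all genes. Higher were none with Eth, against 16.5%, and 11.8% with Dex, against 11.7%. PTGES3 (p23), the co-chaperone that stabilises HSP90 bound to steroid receptors, went from 345, 293 and 315 CPM in siNS Eth to 99.04, 99.6 and 122 in siHP1γ Eth, and from 289, 270 and 268 to 139, 118 and 113 with Dex. It was far apart in both, with log2 fold changes of -1.57 (edgeR adjusted p = 7.355e-12) and -1.16 (edgeR adjusted p = 1.334e-09). HSP90AA1, the inducible cytosolic HSP90, was lower by -0.56 with Eth and -0.28 with Dex, and HSPA8, the constitutive HSP70, by -0.39 with Eth and -0.30 with Dex. In siPRMT5 cells 5 were lower and 1 higher with Eth (35.3% called, against 42.1% of all genes). With Dex 8 were lower and 2 higher (58.8%, against 42.4%). Lower were 29.4% with Eth and 47.1% with Dex, against 21.6% and 21.9% of all genes. Higher were 5.88% and 11.8%, against 20.6% in each condition. CDC37, which brings kinases to HSP90, went from 228, 303 and 277 to 161, 188 and 142 with Eth and from 278, 325 and 297 to 151, 122 and 162 with Dex. Its log2 fold changes were -0.72 and -1.05, those of FKBP4, an immunophilin of the steroid receptor complex, were -0.49 and -0.58, and CHORDC1 was higher with Dex, by 0.53. HSP90AA1 was lower in siPRMT5 cells too, by -0.53 and -0.30.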

How the data were processed

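RNA from the 18 libraries was prepared with Lexogen kits and, per the labels, the authors aligned reads with Bowtie2 2.4.2 to hg38 and counted them per gene with HTSeq 0.9.1; the annotation and strand setting are not given in the sources used here. The deposited values are whole counts per gene and library, and reads shared with pseudogenes or with overlapping genes cannot be told apart. The deposited comparison table of the authors (log2 fold changes and adjusted p-values from DESeq2 2.11.40.7) was not used. Library totals were 8682992 to 12472381 counts.

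Counts were filtered (filterByExpr), scaled by TMM and fitted over all 6 groups with the quasi-likelihood test of edgeR 4.0.16 (R 4.3.3; 12 residual degrees of freedom), adjusted by Benjamini-Hochberg over 15298 genes. Fold changes are depleted against siNS, Dex against Eth, or siPRMT5 against siHP1γ; an interaction is the Dex response in depleted cells minus that in siNS cells. Gene positions are from GENCODE 44 on hg38.

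The members and gene lists were chosen with earlier results of these data known. Named members were those past the threshold with the 8 largest changes in each direction per depletion, those called for Dex, the 6 largest per interaction and direct comparison, a set of reference chaperones, and up to 3 genes per other list. The other lists were the unfolded protein response, HSF1 targets and co-chaperones, mitochondrial protein quality control, and prefoldin with chaperonin helpers. Alternatives were library size or DESeq2 size factors as scaling, DESeq2 1.42.0, other filters and thresholds, the libraries of a contrast alone, a replicate block, and each library left out; those for the lists were chosen after seeing the data. The replicate numbers were checked for pairing and did not pair the samples.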

Additional observations from a re-analysis of the deposited data

Results flagged for a closer look

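The Dex response of DNAJB4 differed between siPRMT5 and siNS cells by a log2 fold change of -0.6805 (interaction, edgeR adjusted p = 0.01797): the response was -0.65 in siPRMT5 cells, while the siNS Eth and siNS Dex libraries overlapped. That of DNAJB5 differed by -0.5178 (interaction, edgeR adjusted p = 0.0355): the response was 0.35 in siNS cells (edgeR adjusted p = 0.02559) and -0.16 in siPRMT5 cells (edgeR adjusted p = 0.2924). Neither interaction held under every alternative run.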

How the results depend on the processing

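No called value changed direction under the alternatives run. The numbers of members called for PRMT5 depletion (31 with Dex, 35 with Eth), for HP1γ depletion with Eth (25) and for both direct comparisons (36 and 35) stayed within 1.5 times under every alternative; with 1 library left out they were 24 to 32, 25 to 35, 18 to 26, 32 to 37 and 29 to 35. HP1γ depletion with Dex gave 9 members in place of 16 with the libraries of the contrast only, and 8 to 16 with 1 library left out. For the Dex response, dropping the fold limit gave 3 members in siNS, 2 in siHP1γ and 12 in siPRMT5 cells. The share of all genes is not given for that setting. In siPRMT5 cells library size only, no filter or the replicate block gave 2, and a fold of at least 2 gave 0. With 1 library left out these counts were 0 to 1 in siNS (1 without siNS Eth or siNS Dex replicate 2 or 3), 0 to 0 in siHP1γ and 1 to 2 in siPRMT5 cells (2 without siNS Eth replicate 1, siHP1γ Dex replicate 1 or siPRMT5 Dex replicate 3). The interaction with HP1γ gave 4 members with DESeq2, 2 without a filter and 0 to 2 with 1 library left out (2 without siNS Eth replicate 2). That with PRMT5 gave 5 with DESeq2 and 0 to 3 with 1 library left out, 0 without siPRMT5 Dex replicate 1 and 1 without any siNS Dex replicate, siPRMT5 Eth replicate 2 or 3, siNS Eth replicate 3 or siHP1γ Eth replicate 3. The cause of these changes was not tested. Same-numbered libraries correlated at -0.0622 to 0.119, over 0.1 in 1 of 15 pairs, and 10 of 18 libraries were nearest to their own number; with the replicate block, 30 and 16 members were called for PRMT5 and HP1γ depletion with Dex and 35 and 25 with Eth. Library size alone moved the median of all genes by at most 0.0815 (log2). Each group has 3 libraries, and genes listed at 0 could not be examined.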

Other observations

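Outside the ER and cytosol, 12 of 13 listed mitochondrial protein quality control genes were tested. In siPRMT5 cells 5 were lower and 2 higher, with Eth and with Dex (58.3% called, against 42.1% and 42.4% of all genes). LONP1, the protease of the mitochondrial matrix, had log2 fold changes of -0.42 with Eth and -0.67 with Dex, TRAP1, the mitochondrial HSP90, had -0.36 and -0.42, the inner membrane protease subunit AFG3L2 had -0.50 with Eth, and CLPX, the unfoldase of the ClpXP protease, was higher with Dex, by 0.44. In siHP1γ cells 3 were lower with Eth (HSCB -0.60, GRPEL2 -0.42 and SPG7 -0.30) and 2 with Dex (SPG7 -0.48 and TRAP1 -0.40). These were 25% and 16.7% lower, against 15.2% and 12.3% of all genes lower. None was higher in either condition, where 16.5% and 11.7% of all genes were.

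Prefoldin and the phosducin-like proteins pass unfolded actin and tubulin to the CCT chaperonin. Of 9 such genes 8 were tested. In siHP1γ cells 3 were lower with Eth (PDCL3 -0.42, VBP1 -0.33 and TXNDC9 -0.30) and 1 was higher with Dex (PFDN4 0.23), where 31.8% and 24% of all genes were called. In siPRMT5 cells 1 was higher with Eth (PDCL 0.43), and 4 were higher and 1 lower with Dex, the largest being PDCL3 (0.38), TXNDC9 (0.32) and PDCL (0.28), where 42.1% and 42.4% of all genes were called.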
